A study of Mus musculus with 120 samples.

Results

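The genes described here are 10 members of the circadian clock circuit: Bhlhe40 and Bhlhe41, Per1 and Per2, Cry1 and Cry2, Clock, Nr1d1 and Nr1d2, and Dbp. They were taken by their symbols (Bhlhe40 also under its older symbol Bhlhb2), from the 18194 genes that probe sets of a single gene name on the 2 arrays of the study, and they hold 18 probe sets on the Mouse430_2 array and 14 on the smaller Mouse430A_2 array. All 10 genes had at least 1 probe set on both arrays. The cells were mouse embryonic stem (ES) cells of the EB3 line, in clones that each held 1 tagged coding sequence in the ROSA26 locus under a promoter that tetracycline (Tc) keeps silent. In 20 experiments, named after the transgene in the labels (Aire, Bach1, Dscr1, Erg, Ets2, Gabpa, Nrip1, Olig1, Pknox1, RIKEN-1810007M14, Hunk, Dyrk1a, Snf1lk, Pdxk, Ripk4, Pfkl, Olig2, Sim2, Zfp295 and Runx1), 3 clones were profiled after Tc withdrawal (induced) and with Tc present (uninduced), 120 arrays in all. Induced cells had been without Tc for 24 hours in 15 experiments, for 39 hours in Hunk, Ripk4 and Sim2, and for 48 hours in Aire and Pdxk, by the labels. By the study's methods, cells to be induced were washed, cultured without Tc, trypsinized and plated again on new dishes. All uninduced arrays are labelled as time zero, so that Tc withdrawal, this replating and the time in culture cannot be told apart. The inserted sequences of Zfp295, Dyrk1a and Snf1lk were human, and every clone carries the same Tc-controlled expression system.

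The clock is a feedback loop of transcription. The activator CLOCK, with its partner ARNTL, binds E-box sequences of the Per and Cry genes, whose proteins then repress that activator, while BHLHE40 and BHLHE41 compete for the same E-boxes as repressors. The nuclear receptors NR1D1 and NR1D2 repress Arntl, and DBP activates genes with a D-box. Bhlhe40 is also known as a target of hypoxia-inducible factor. Undifferentiated mouse ES cells are known to express these genes without a self-sustained rhythm.

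The elements of this loop can be seen in the promoters of the members. RefSeq promoter sequences (GRCm38.p6, 250 bases before to 50 bases after the annotated start) were at hand for 8 of the 10 genes, in 11 promoters. They were searched on both strands for the E-box CACGTG, the D-box TTATGNAA and the element AGGTCA that ROR and REV-ERB receptors bind. The E-box was found in Bhlhe41, Per1 and Cry1, 3 of 8 genes, and in 7.15% of all 32851 promoters of the table. The element AGGTCA was found in Nr1d2 and, on the reverse strand, in Per1 and Clock, and in 16.3% of all promoters. The D-box was found in Per1, and in 3.38% of all promoters, and no match overlapped another. The stretches below are shown because they hold the matches among the members that lie on the strand of the gene or read the same on both, with the element in capitals and each read 5′ to 3′ on the strand of its gene.
Bhlhe41 (chr6:145865541-145865600, minus strand): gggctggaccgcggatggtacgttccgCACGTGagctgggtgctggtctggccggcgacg
Per1, E-box (chr11:69098756-69098815, plus strand): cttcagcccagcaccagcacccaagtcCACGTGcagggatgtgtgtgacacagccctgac
Per1, D-box (chr11:69098898-69098948, plus strand): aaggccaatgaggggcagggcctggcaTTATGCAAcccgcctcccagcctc
Cry1 (chr10:85185082-85185141, minus strand): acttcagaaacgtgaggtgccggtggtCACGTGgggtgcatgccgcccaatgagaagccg
Nr1d2, AGGTCA (chr14:18239151-18239210, minus strand): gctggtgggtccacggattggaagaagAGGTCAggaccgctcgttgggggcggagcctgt
A match describes these windows and shows no binding.

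The arrays hold log2 values, normalized by the authors for the 6 arrays of each experiment apart, so that levels were compared within an experiment only. In each experiment limma was fitted over all probe sets with the clone number as a block, and a probe set was called at a Benjamini-Hochberg adjusted p under 0.05. Of the 8 ES cell markers, all stood above the upper quartile of their array in all 114 Mouse430_2 arrays. Of 5 primitive endoderm markers, Gata6, Gata4 and Sox17 each stood above it in 6 of these arrays, Dab2 in 24 and Afp in 0. Among the trophoblast, mesoderm, neural and fibroblast markers, Tubb3 (104 arrays), Nes (46) and Thy1 (33) did so most often. The background of calls differed widely between experiments. The test called 16.2% of all probe sets in Runx1, 12% in Erg, 3.93% in Aire, 1.76% in Olig2 and 0.914% in Sim2. It called 0.264% in Pdxk, 0.135% in Nrip1, 0.0177% in Ripk4, 0.00665% in Hunk and 0.00222% in Bach1. In the remaining 10 experiments it called 0%, where 1011 to 6655 probe sets had an unadjusted p under 0.05, and where the methods' t-test called at most 1. A regularized test like Cyber-t called 0 in 7 of these 10 experiments, 1 in Dscr1, 11 in Dyrk1a and 0.224% of all probe sets in Gabpa.

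Against that background, 5 of the 356 tests of a member probe set in an experiment were called. Bhlhe40 rose in Erg, Sim2 and Runx1, where 12%, 0.914% and 16.2% of all probe sets were called. Nr1d2 fell in Olig2 and Runx1, where 1.76% and 16.2% were called. Without adjustment, 53 of the 356 tests had p under 0.05, and 12 of these were of Bhlhe40. Over all probe sets, the share with an unadjusted p under 0.05 ran from 1011 of 45101 in Dscr1 to 7312 of 22690 in Runx1. The other 9 genes moved little: over their main probe sets (the one with the highest mean level of each gene) and the 20 experiments, 108 of 180 mean differences were above 0, and they ran from −0.58 to 0.54 on the log2 scale. Only 2 of the 180 were larger than 0.5, Nr1d2 in Olig2 and Dbp in Sim2.

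**Figure D1:**
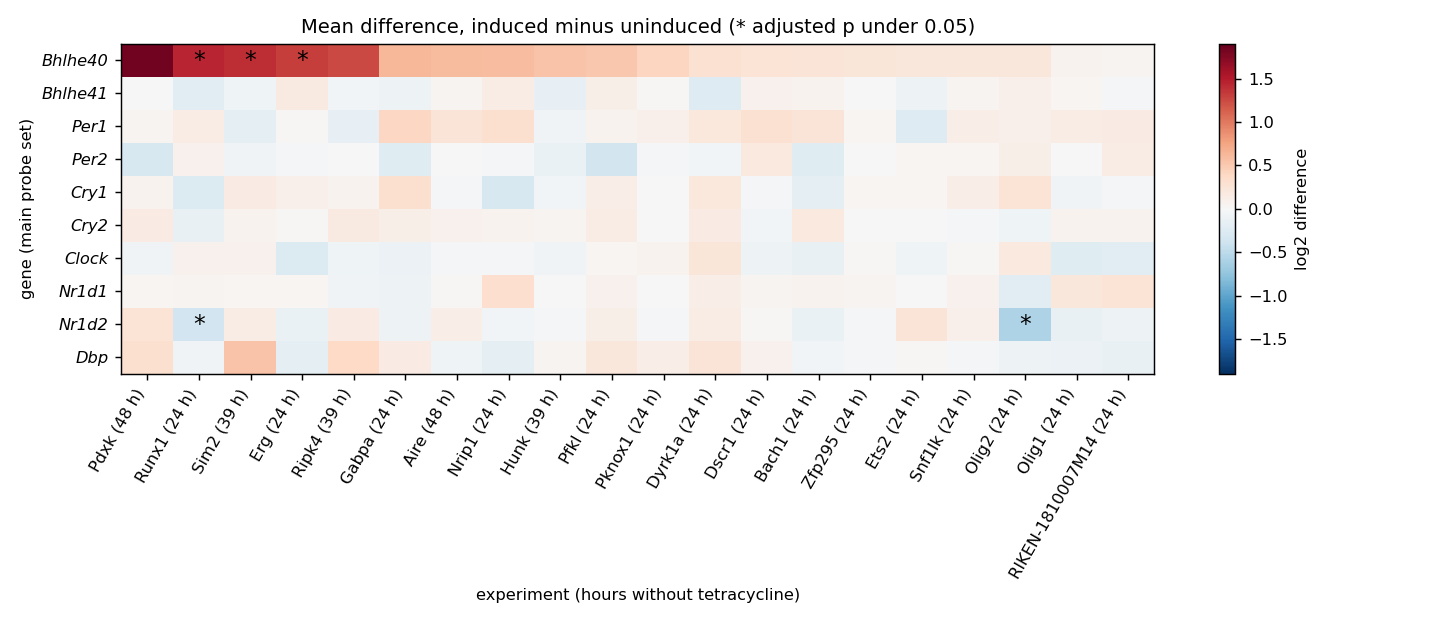
Mean log2 difference, induced minus uninduced, of the main probe set of each of the 10 genes (rows) in the 20 experiments (columns, ordered by the Bhlhe40 value, with the hours without Tc). The Bhlhe40 row is above 0 throughout, from 0.05 to 1.84, and asterisks mark the 5 calls at an adjusted p under 0.05.

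Bhlhe40 encodes a basic helix-loop-helix repressor that binds E-boxes. In Erg, its level was 7.69, 7.07 and 7.20 in induced clones 1, 2 and 3, against 6.12, 5.91 and 5.97 in the same clones uninduced. All 3 induced arrays lay above all uninduced arrays. The mean was 7.32 ± 0.33 in induced and 6.0 ± 0.10 in uninduced clones (SD, n = 3 each), a log2 difference of 1.32 (SE 0.10, 2.49-fold, limma adjusted p = 0.000273). In Runx1, on the smaller array, the level was 7.93, 8.52 and 8.06 in induced clones, against 6.48, 6.83 and 6.85 in uninduced clones. These groups did not overlap either, and the difference was 1.45 (SE 0.10, 2.73-fold, limma adjusted p = 0.000907). In Sim2, the level was 9.69, 9.87 and 10.43 in induced clones, against 8.88, 8.08 and 8.79 in uninduced clones. Here too every induced array was higher than every uninduced one, and the difference was 1.41 (SE 0.19, 2.66-fold, limma adjusted p = 0.0426).

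The Sim2 call rests on the pairing of arrays. The study's gene table lists the first 2 Sim2 clones in another order after induction than before, and with these crossed the adjusted p was 0.0848, while without the clone block it was 0.0821. It was 0.241 without replicate 2 and 0.379 by the methods' t-test. The Erg call was lost by the methods' t-test (adjusted p = 0.0810), and the Runx1 call was kept under all 9 alternatives that could be run for it. Non-overlap of the 3 induced above the 3 uninduced arrays was seen for Bhlhe40 in these 3 of 20 experiments, and in 5.58% of all combinations of a probe set and an experiment. That share pools all 20 experiments, and the share within these 3 was not determined.

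The mean difference of Bhlhe40 was largest in Pdxk, where it did not pass the test. Its level was 8.93, 9.83 and 9.59 in induced clones, against 6.04, 9.15 and 7.65 in uninduced clones. The induced clones lay close together while the uninduced clones spread over 3.11 log2 units, so that the difference was 2.89, 0.69 and 1.94 in clones 1, 2 and 3. The mean difference was 1.84 (SE 0.33, limma adjusted p = 0.0765). The adjusted p was 2.78e-06 without replicate 2, 0.00125 in 1 fit over all Mouse430_2 clone pairs and 0.0145 by the Cyber-t kind of test. Ripk4 showed a like picture. There the level was 9.87, 8.67 and 10.16 in induced clones, against 9.12, 6.10 and 9.71 in uninduced clones. The clone lowest before induction was higher by 2.57 after it and the others by 0.76 and 0.46, with a mean of 1.26 (SE 0.36, limma adjusted p = 0.635).

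In Nrip1, clones that differed widely among themselves moved by like amounts. The level was 8.49, 6.38 and 8.78 in induced clones, against 7.94, 5.64 and 8.30 in uninduced clones. Each clone was higher after induction, by 0.55, 0.74 and 0.48, although the groups overlapped (mean 0.59, SE 0.10, limma adjusted p = 0.0866, and 0.0492 by the Cyber-t kind of test). In Gabpa, the level was 8.78, 6.64 and 6.94 in induced clones, against 6.35, 8.44 and 5.69 in uninduced clones. Clone 2 was lower after induction by 1.79 and the others were higher by 2.43 and 1.26. The Gabpa clone numbers did not pair the arrays over all probe sets either (correlations of 0.05, −0.18 and 0.17 between the deviations of equally numbered arrays), so this mean of 0.63 has no settled pairing. Without replicate 2, Bhlhe40 passed the test in Gabpa at 1.85 (limma adjusted p = 0.00209). This was the only 1 of the 3 leave-outs called in Gabpa, and the difference there turned to −0.27 without replicate 1. In Aire, Bhlhe40 passed without replicate 2 at 0.88 (limma adjusted p = 0.000391), where the mean of all 3 clones was 0.60 (limma adjusted p = 0.0992).

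The smallest differences were those of RIKEN-1810007M14, Olig1 and Olig2. In RIKEN-1810007M14, the level was 9.23, 9.30 and 9.39 in induced clones, against 9.33, 9.12 and 9.31 in uninduced clones. These arrays differed by less than 0.3 in all, and the mean difference was 0.05. In Olig1 it was 0.06 and in Olig2 0.22. All 3 differences turned below 0 when replicate 2 was left out (−0.01, −0.03 and −0.04).

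**Figure D2:**
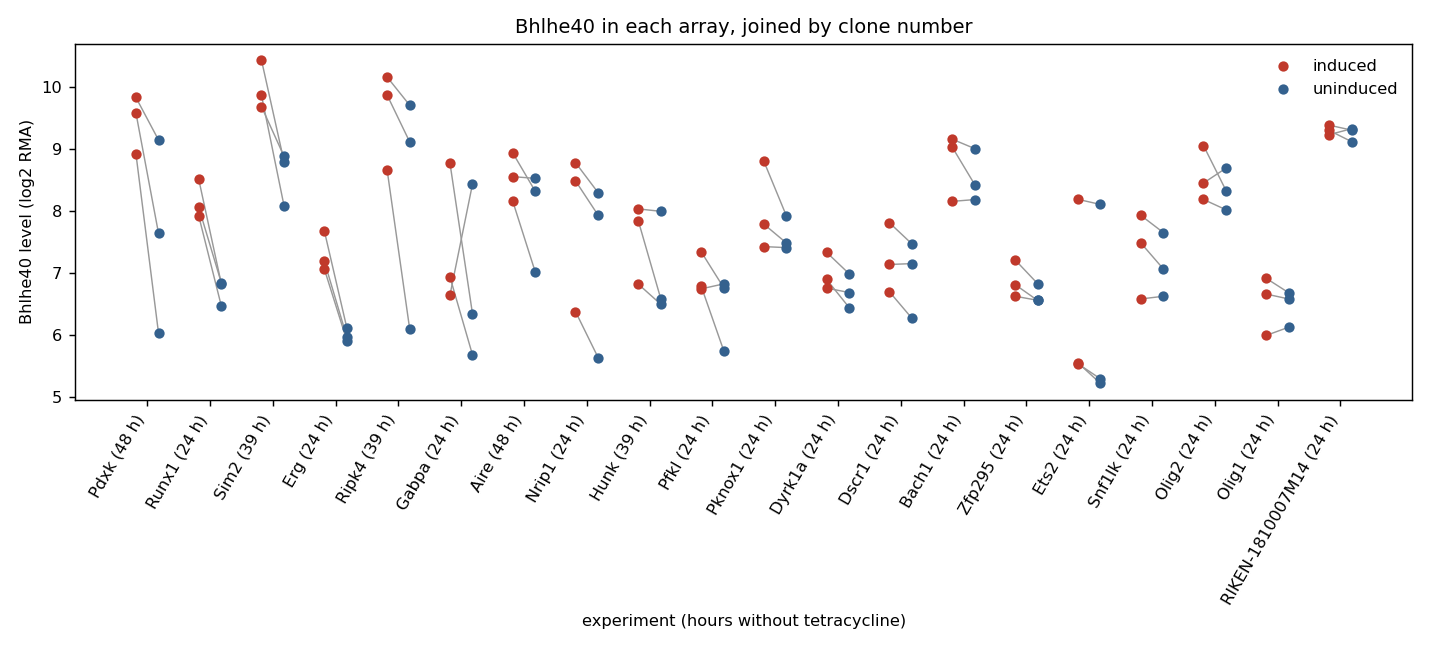
Bhlhe40 level (log2 RMA value, y axis) in each of the 120 arrays, with induced (red, left) and uninduced (blue, right) arrays joined by clone number, in 20 experiments ordered by mean difference. Levels compare within an experiment only, and the lowest of the uninduced clones of Pdxk (6.04) and Ripk4 (6.10) stand far below the other clones of their experiment.

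Over the 20 experiments the mean difference of Bhlhe40 was above 0 in 20 of 20, with a median of 0.46, and 52 of 60 clone pairs were higher after induction. All 3 clones were higher in 12 experiments, and in no experiment were all 3 lower. Among the 22689 probe sets found on both arrays, 3 were above 0 in all 20 experiments (0.0132%): Bhlhe40, and Rbck1 and Kif23, whose medians were 0.11 and 0.08. The mean response over the 19 Mouse430_2 experiments, with the experiment as the unit, was 0.57 for Bhlhe40 (SE 0.11, limma adjusted p = 0.0447). Bhlhe40 was the only one of the 18 member probe sets called, where the background was 0.0554% of all probe sets, and it ranked 6 by size of rise. The hypoxia genes Pfkfb3 (0.48, adjusted p = 0.0190) and Ankrd37 (0.46, adjusted p = 0.0287) were also called and were above 0 in 19 of 19 experiments.

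That call was close to the threshold. Leaving out each of the 19 experiments in turn kept the mean between 0.50 and 0.60 but lost the call in 12 of 19, with adjusted p up to 0.0969 (without Aire). Leaving out each replicate number in turn gave adjusted p of 0.0634 to 0.138. Without the transgenes the study named effective (Erg, Nrip1, Sim2, Olig2, Aire and Pdxk on this array) the mean was 0.38 (limma adjusted p = 0.156). With the clone pair as the unit the limma adjusted p was 0.000116. The latter fit takes clones of 1 transgene as independent, although they share an experiment, so its p is too small.

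The Bhlhe40 difference was larger in the experiments with longer Tc withdrawal. The mean difference was 1.13 ± 0.55 in the 5 experiments at 39 and 48 hours, against 0.38 ± 0.32 in the 14 at 24 hours on the same array (SD over experiments). The contrast was 0.75 (SE 0.18, limma adjusted p = 0.0175), and it was the 1 of 18 member probe sets called, a share near the background of 5.73% of all probe sets. Of the 17 hypoxia genes, 8 were called higher in this contrast, with a list median of 0.31, and Ndufa4l2 (1.03), Bnip3 (0.99), Aldoc (0.92) and Egln3 (0.87) had larger values than Bhlhe40. The ranges overlapped, from 0.54 (Hunk) upward at 39 and 48 hours and up to 1.32 (Erg) at 24 hours. The transgenes differ between the times, so time and transgene cannot be told apart. The call was lost without Pdxk (adjusted p = 0.0960), without Sim2 (0.0839), without replicate 1 (0.101) and without replicate 2 (0.168). It was kept with Pfkl, for which the study's own list gives 39 hours, moved to the later experiments (0.66, adjusted p = 0.0286). In the 24 hour experiments alone Bhlhe40 was higher in 14 of 14, with a mean of 0.38, an unadjusted p of 0.000126 and an adjusted p of 0.262.

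**Figure D3:**
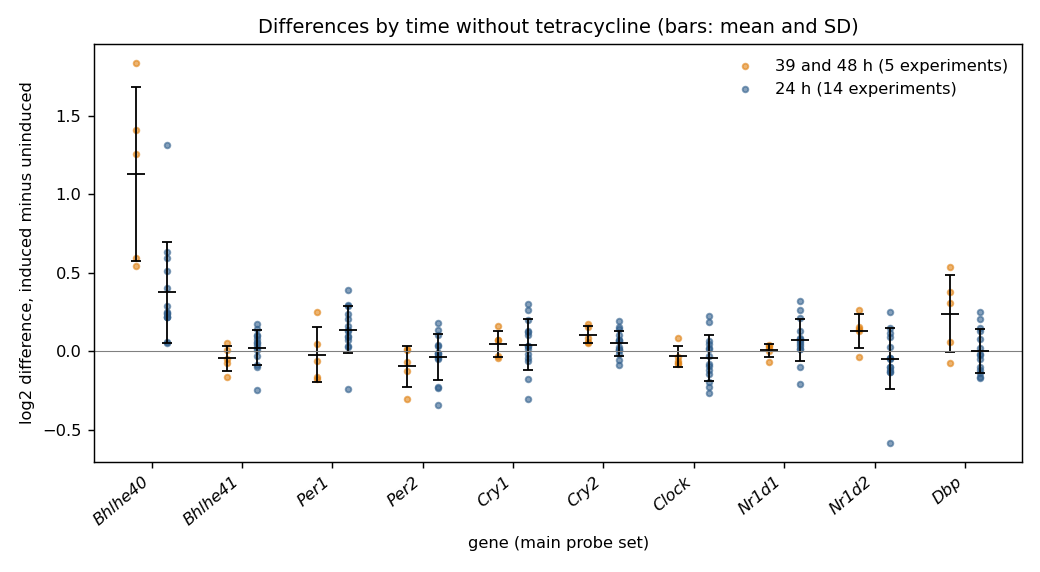
Log2 difference, induced minus uninduced, of the main probe set of each gene at 39 and 48 hours (orange, left, 5 experiments) and at 24 hours (blue, right, 14 experiments), where each point is an experiment and bars give the mean and SD. The 2 Bhlhe40 means, 1.13 and 0.38, are the widest apart of the 10 genes.

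The Bhlhe40 level also differed strongly between clones that had not been induced. Uninduced clones of 1 experiment were more than 1 log2 unit apart in 10 of 20 experiments, up to 3.61 in Ripk4, and their pooled SD was 0.92 over the 19 Mouse430_2 experiments. The median SD over all probe sets was 0.15, and 0.0754% of probe sets had a larger one. In induced clones the pooled SD of Bhlhe40 was 0.70. Among the other members the pooled SD of uninduced clones ran from 0.09 (Bhlhe41) to 0.29 (Per1). In Ets2, for example, the Bhlhe40 level was 8.19, 5.56 and 5.54 in induced clones, against 8.11, 5.22 and 5.30 in uninduced clones. Clone 1 stood apart in both states, and over 57 clones the deviation from the experiment mean in the induced and the uninduced state had a correlation of 0.65.

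Genes whose induced minus uninduced difference was most like that of Bhlhe40 were ranked by Pearson's r over the 57 clone pairs, among 20094 probe sets brighter than the median. They were the adiponectin receptor gene Adipor2 (0.86), the cyclin gene Ccng2 (0.85), the glycolytic kinase gene Pgk1 (0.81), Ddit4 (0.80), Ankrd37 (0.80), Ndufa4l2 (0.79), the aldolase gene Aldoc (0.79) and Bcar3 (0.78). Of these 8, 5 belong to a list of 17 hypoxia-induced genes. That list was chosen with earlier results of these data known, and its share of the ranked probe sets was not determined. Among uninduced clones alone, the 8 most like were the phosphatase gene Dusp1 (0.90), Ccng2 (0.88), the oxygen sensor genes Egln3 (0.84) and Egln1 (0.84), Ankrd37 (0.83), Adipor2 (0.83), Clic1 (0.83) and Tmem35b (0.82). This ranking was added after the first was seen. Adipor2, Ankrd37 and Ccng2 were in both sets. The points share their experiments and, within a pair, their clones.

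The hypoxia list was high in some of the experiments where Bhlhe40 was high, and not in others. Its median difference was 0.84 in Pdxk, 0.66 in Ripk4 and 0.51 in Sim2, and 9 of 17 members were called higher in Pdxk, 0 in Ripk4 (15 at an unadjusted p under 0.05 in limma) and 6 in Sim2, where 0.264%, 0.0177% and 0.914% of all probe sets were called. In Erg, where 12% of all probe sets were called, the list had a median of 0.06. There 3 members were called higher and 1 lower, beside a Bhlhe40 difference of 1.32. Olig2 stood the other way. There the list had the fourth highest median, 0.37, with 17 of 17 members above 0, beside a Bhlhe40 difference of 0.22. In Olig2, 2 members were called, where 1.76% of all probe sets were called. In Runx1 the median was 0.28, with 7 of 14 called higher and 1 lower, where 16.2% of all probe sets were called. In Aire it was 0.25, with 3 called higher and 1 lower, where 3.93% were called. The part of these genes in the Bhlhe40 result was not tested.

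The hypoxia genes called in Pdxk were Egln3 (2.37), Bnip3, a mitophagy receptor gene (1.86), Aldoc (1.75), Ankrd37 (1.55), Pfkfb3 (1.30), Egln1 (1.17), Ero1a (0.85), the glucose transporter gene Slc2a1 (0.84) and the peptide hormone gene Adm (0.80). In Sim2 they were Aldoc (1.23), Ndufa4l2 (1.15), Bnip3 (1.14), Ddit4 (0.97), Egln3 (0.91) and Ero1a (0.85). Bnip3, Aldoc, Egln3 and Ero1a passed in both. In Erg, Ddit4 (0.83), Ankrd37 (0.54) and Slc2a1 (0.44) were higher and the growth factor gene Vegfa lower (−0.57). In Runx1, Aldoc (0.66), Car9 (0.66), Egln1 (0.58), Ddit4 (0.46), Egln3 (0.34), Pgk1 (0.31) and Ero1a (0.25) were higher and the kinase gene Pdk1 lower (−0.93). Aire had Bnip3 (0.86), Aldoc (0.80) and Ndufa4l2 (0.66) higher and Vegfa lower (−0.52), Olig2 had Pfkfb3 (0.88) and Bnip3 (0.63) higher, and Nrip1 had Egln3 higher (1.15). All these values are log2 differences called by limma.

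The 14 immediate early genes, which respond quickly to growth and stress signals, moved both ways. Their median ran from −0.27 to 0.15 over the 20 experiments. Calls were made in Runx1, Erg, Aire, Olig2, Pdxk and Ripk4, where limma called 16.2%, 12%, 3.93%, 1.76%, 0.264% and 0.0177% of all probe sets. In Runx1, 7 of 14 were called lower, namely Sgk1 (−1.78), Egr1 (−0.99), Nr4a1 (−0.69), Ier2 (−0.63), Dusp1 (−0.58), Junb (−0.53) and Crem (−0.35), and Ier3 was called higher (1.75). In Erg, Jun (1.44), Klf10 (0.69), Junb (0.47) and Dusp1 (0.40) were called higher and Egr1 lower (−2.09). In Aire, Egr1 (−2.11), Fos (−0.45) and Junb (−0.38) were called lower and Ier3 higher (0.50). Olig2 had Dusp1 (0.46) and Klf10 (0.43) higher and Sgk1 (−0.51) lower, Pdxk had Ier3 higher (1.60) and Atf3 lower (−0.84), and Ripk4 had Ier3 higher (1.16). In the mean response Ier3 had 0.48 (above 0 in 18 of 19, limma adjusted p = 0.0587) and Egr1 −0.53 (above 0 in 3 of 19, adjusted p = 0.118). Atf3 had −0.21 (above 0 in 2 of 19, limma adjusted p = 0.0983), Klf10 0.19 (above 0 in 17 of 19, adjusted p = 0.0738) and Dusp1 0.18 (adjusted p = 0.125).

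Markers of cell types were called in Runx1, Erg, Aire, Olig2 and Sim2, where limma called 16.2%, 12%, 3.93%, 1.76% and 0.914% of all probe sets. None was called in Pdxk and Ripk4, where limma called 0.264% and 0.0177%. Of the 8 ES cell markers, 5 were called lower in Erg and 5 in Runx1, with Nanog at −1.13 and −0.62, and 0 in Sim2, Olig2, Pdxk and Nrip1 in limma (0, 2, 2 and 4 at an unadjusted p under 0.05). In Nrip1 all 8 were below 0, with a median of −0.30. Of 4 trophoblast markers, Eomes (1.74) and Krt7 (1.65) were called higher in Runx1, where the list had a median of 0.95, Krt7 was called higher in Sim2 (0.94), and Eomes (−0.37) and Cdx2 (−0.40) lower in Aire. Of 2 mesoderm markers, Kdr was called higher in Erg (1.48) and lower in Runx1 (−0.41), and of 4 fibroblast markers Thy1 was called higher in Erg (2.11) and Olig2 (0.51). Of 4 neural markers, Tubb3 (0.45) and Nes (0.47) were called higher and Pax6 (−0.71) lower in Runx1, Nes (0.35) higher and Tubb3 (−0.36) lower in Erg, Tubb3 lower in Sim2 (−0.88) and Pax6 lower in Aire (−0.81). The part of these markers in the member results was not tested.

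**Figure D4:**
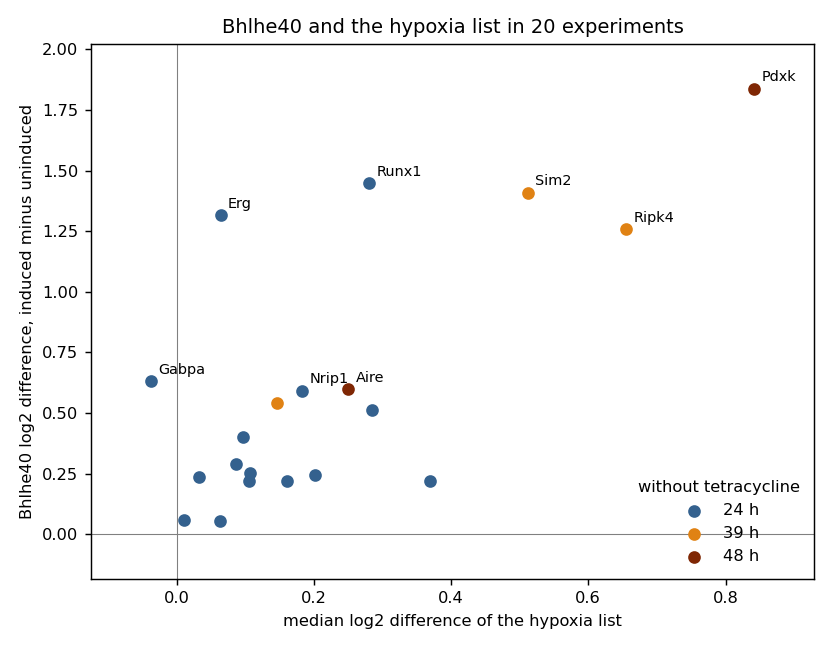
Bhlhe40 difference (y axis, log2, induced minus uninduced) against the median difference of the 17 hypoxia genes (14 for Runx1, x axis, log2), 1 point for each of the 20 experiments, coloured by hours without Tc. Pdxk, Sim2 and Ripk4 are high on both axes, while Erg is high for Bhlhe40 (1.32) at a list median of 0.06.

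Bhlhe41, the paralog of Bhlhe40 and a repressor of the same kind, was called in none of the experiments by limma, where 2 of its 39 tests had an unadjusted p under 0.05. The mean response of its main probe set was 0.00 (SE 0.02, limma adjusted p = 0.965), and single differences ran from −0.25 in Dyrk1a to 0.17 in Erg. Its level lay between 3.41 and 5.34 in induced and between 3.55 and 5.38 in uninduced arrays. This dim probe set stood under the array median in 112 of the 114 Mouse430_2 arrays, and under the lower quartile in 1 experiment. The r of the 2 paralogs over the 57 clone pairs was 0.11.

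The genes for the repressors PER and CRY had 0 calls in 119 tests by limma, with 12 at an unadjusted p under 0.05. Per1, which is also inducible by outside signals, was higher in 16 of 20 experiments, with a mean response of 0.10 (SE 0.04, limma adjusted p = 0.250) and differences from −0.24 (Ets2) to 0.39 (Gabpa). In Nrip1 Per1 was higher by 0.30 (unadjusted p = 0.0330), and in Aire by 0.25 (unadjusted p = 0.0194). Cry2 was higher in 16 of 20, with the narrowest spread over experiments of the main probe sets and a mean response of 0.06 (SE 0.02, unadjusted p = 0.00336, limma adjusted p = 0.152). Neither average reached the threshold over all probe sets.

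Cry1 was higher in 12 and lower in 8 experiments, from −0.30 in Nrip1 to 0.30 in Gabpa. In Runx1 it was lower by 0.26 on the log2 scale (limma adjusted p = 0.0656) and in Olig2 higher by 0.26 (limma adjusted p = 0.129), with all 3 clones the same way in each. Both passed the Cyber-t kind of test (adjusted p = 0.0200 and 0.0175), and the methods' t-test called neither. Per2 was read by 3 probe sets, which had mean responses of −0.05, −0.05 and 0.05. The main one was lower by 0.35 in Pfkl and by 0.30 in Pdxk in all 3 clones, with limma adjusted p of 0.870 and 0.161. This main probe set stood under the array median in 102 of the 114 Mouse430_2 arrays. One of the other 2 stood under the lower quartile of its arrays in 18 of the 19 Mouse430_2 experiments. In Runx1, which was not part of that count, this probe set passed the Cyber-t kind of test (0.45, adjusted p = 0.0301).

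Clock, the activator, was read by 4 probe sets with 0 calls in 78 tests by limma, 10 of them at an unadjusted p under 0.05, and 0 by the Cyber-t kind of test. The main one had a mean response of −0.04 (SE 0.03) and ran from −0.26 in Erg (limma adjusted p = 0.0705, and 0.0478 without the dimmer probe sets) to 0.23 in Dyrk1a. Another Clock probe set was higher by 0.55 in Gabpa (limma adjusted p = 0.219, and 0.0101 in 1 fit over all clone pairs). Its 4 mean responses differed in sign, from −0.04 to 0.05. Arntl, which encodes the partner of CLOCK, was lower in Erg by 0.55 (limma adjusted p = 0.00535), and in Runx1 its difference was −0.24 (limma adjusted p = 0.0722).

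Nr1d2, which encodes the receptor REV-ERB beta, was called in 2 experiments in the same direction. In Olig2, its level was 8.33, 8.20 and 8.65 in induced clones, against 9.0, 8.86 and 9.06 in uninduced clones. All induced arrays were below all uninduced arrays, and the difference was −0.58 (SE 0.08, 1.5-fold lower, limma adjusted p = 0.0191). In Runx1, the level was 9.37, 9.28 and 9.32 in induced clones, against 9.71, 9.69 and 9.66 in uninduced clones. The groups did not overlap and the difference was −0.37 (SE 0.06, 1.29-fold lower, limma adjusted p = 0.0146). How often induced arrays lay below all uninduced arrays over all probe sets was not determined. The second Nr1d2 probe set gave −0.27 in Olig2 (limma adjusted p = 0.341), and −0.34 in Runx1 (limma adjusted p = 0.193).

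In the opposite direction, Nr1d2 was higher in all 3 clones of 6 experiments. In Pdxk, the level was 9.12, 9.30 and 9.38 in induced clones, against 8.91, 9.12 and 8.99 in uninduced clones. The groups were apart by less than 0.01, and the difference was 0.26 (limma adjusted p = 0.218, and 0.0363 in 1 fit over all clone pairs). In Ets2 it was 0.25 (limma adjusted p = 0.933). A moderated F test over the 57 clone pairs asked whether the response differed between the 19 experiments. It called 2 of 18 member probe sets, Nr1d2 (adjusted p = 3.03e-05) and Dbp (adjusted p = 0.0420), where it called 16.2% of all probe sets. The Olig2 call was lost without the clone block (adjusted p = 0.193), by the methods' t-test (0.563) and without replicate 1 (0.142) or 2 (0.0818). The Runx1 call was lost without replicate 1 (0.0599) or 2 (0.0850).

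Dbp encodes a D-box activator that the clock drives in many tissues. In Sim2, its level was 7.45, 7.38 and 7.21 in induced clones, against 6.97, 6.72 and 6.74 in uninduced clones. The induced arrays lay above all uninduced arrays, as in 5.58% of all combinations of a probe set and an experiment. The difference was 0.54 (SE 0.10, limma adjusted p = 0.0742, and 0.00238 in 1 fit over all clone pairs). In Ripk4, the level was 7.82, 7.31 and 7.82 in induced clones, against 7.48, 6.93 and 7.40 in uninduced clones. Each clone was higher by a like amount (0.33, 0.37 and 0.42), with a mean of 0.37 (limma adjusted p = 0.492). In Pdxk the difference was 0.31 and in Dyrk1a 0.25, with all 3 clones higher. At 39 and 48 hours the mean was 0.24 ± 0.25, against 0.00 ± 0.14 at 24 hours, and this contrast of 0.24 had a limma adjusted p of 0.105. The second Dbp probe set gave a contrast of 0.11 (adjusted p = 0.318). The F test on Dbp lost its call whichever replicate number was left out (adjusted p of 0.200 to 0.281).

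**Figure D5:**
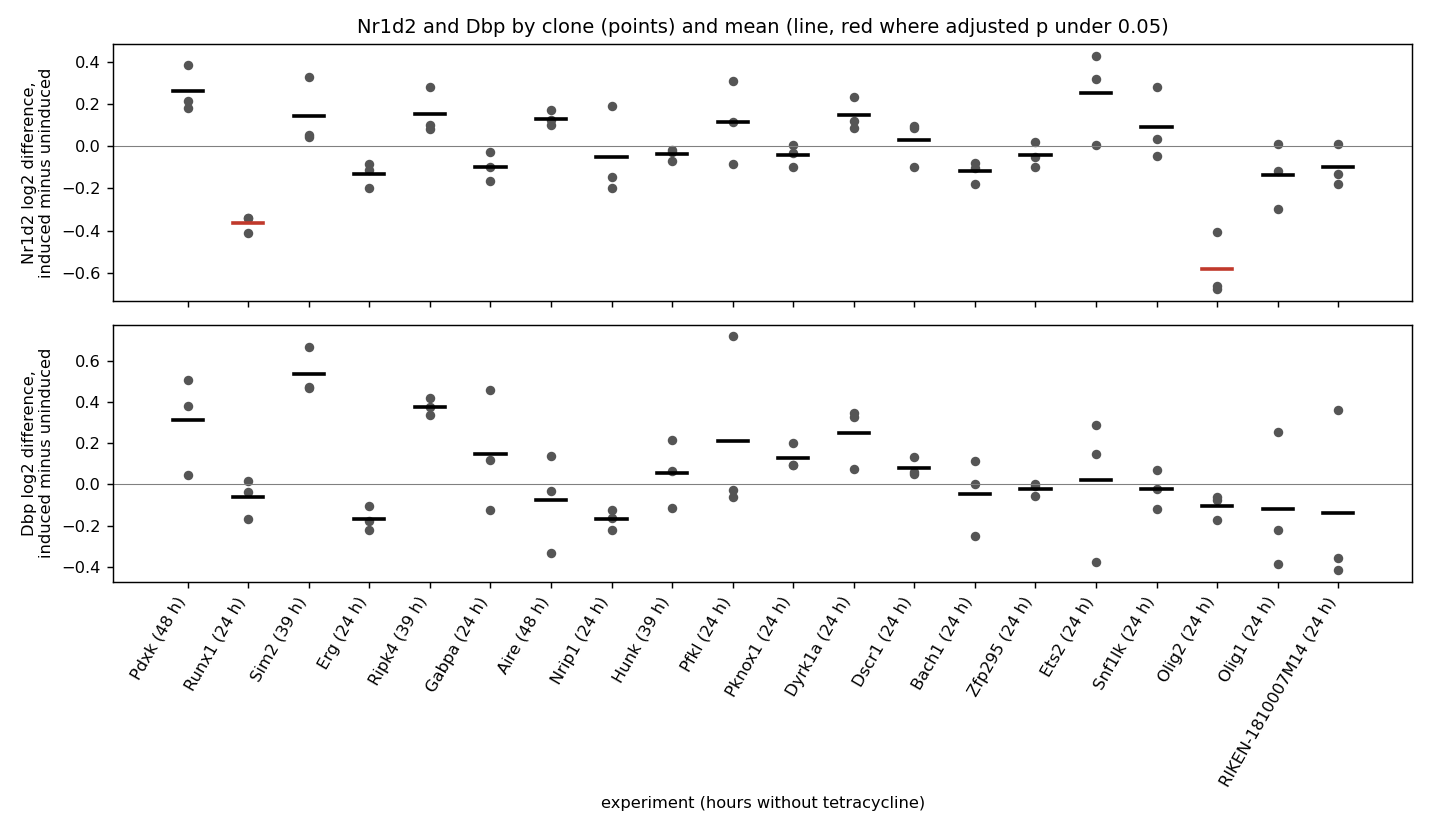
Log2 difference, induced minus uninduced, of each clone (points) and the mean (lines, red where called) for Nr1d2 (top) and Dbp (bottom) in the 20 experiments, ordered by the Bhlhe40 difference. Nr1d2 is lowest in Olig2 (−0.58) and Runx1 (−0.37), and Dbp is highest in Sim2 (0.54).

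Nr1d1, which encodes REV-ERB alpha, was higher in 17 of 20 experiments, with a mean response of 0.06 (SE 0.03, limma adjusted p = 0.389). It ran from −0.21 in Olig2, where all 3 clones were lower, to 0.32 in Nrip1, where all 3 were higher, with 0 calls in 20 tests by limma and by the Cyber-t kind of test (3 at an unadjusted p under 0.05). Among the members, the clone pair differences of Cry2 and Per1 (r = 0.54), Cry1 and Dbp (0.51), and Per1 and Nr1d1 (0.50) were the most alike. Bhlhe40 had its highest r with Dbp (0.42) and its lowest with Per2 (−0.28). The genes most like the others were Sycp3 and Kif18a for Cry1 (0.74 and 0.71), Parp12 and Dmd for Nr1d2 (0.75 and 0.75), Atp6v1d and BC052040 for Dbp (0.82 and 0.80) and Ncdn and Pogz for Per1 (0.80 and 0.79). For Cry2 they were Vps37c and Vac14 (0.75 and 0.73), for Clock Dip2c and Dmxl2 (0.74 and 0.71), for Nr1d1 Man1b1 and Ogg1 (0.73 and 0.70), for Per2 Ncs1 and Mccc2 (0.51 and 0.51) and for Bhlhe41 Inpp5j and 2210016F16Rik (both 0.58). These values describe 57 pairs that share their experiments.

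Of 20 other clock genes, 18 were measured. Noct, a deadenylase-like gene with a rhythmic transcript in many tissues, fell in Runx1 by 1.71 (SE 0.07, limma adjusted p = 0.000311), in Erg by 1.11 (SE 0.10, limma adjusted p = 0.000599) and in Aire by 0.61 (SE 0.08, limma adjusted p = 0.00887). Usp2, a ubiquitin protease gene, rose in Erg by 0.72 (limma adjusted p = 0.00289), and beside Noct, Usp2 and Arntl no other gene of this list was called in an experiment. In the mean response 0 of the 18 were called by limma (5 at an unadjusted p under 0.05), where Usp2 had 0.16 (adjusted p = 0.157) and Per3 had 0.10 (adjusted p = 0.142). At 39 and 48 hours against 24 hours, Tef, a relative of Dbp, was higher by 0.20 (limma adjusted p = 0.0135) and the casein kinase gene Csnk1e by 0.37 (limma adjusted p = 0.0465), 2 of 18 where 5.73% of all probe sets were called. The F test called 5 of the 18 as differing between experiments, where it called 16.2% of all probe sets. The median mean response of the list was 0.02, against 0.05 for the 10 members and 0.00 for all probe sets.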

How the data were processed

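The 120 arrays are Affymetrix Mouse430_2 (114 arrays, 45101 probe sets) and Mouse430A_2 (6 arrays, 22690 probe sets). The deposited values are log2 intensities that the authors made by RMA in the affy package, and the medians of the arrays show that experiments were normalized apart. No versions are given in the sources used here. Probe sets were named through GEO's platform annotation: on Mouse430_2, 34958 name 1 gene, 932 more than 1 and 9211 no gene. The Sim2 table lacks values for 1 probe set.

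Induced and uninduced arrays were paired by clone number in all experiments. The basis was the first rows of the study's Pdxk, Erg and Olig2 gene tables, where the ratios equal means of the ratios within clones. The other experiments were not checked in this way. The methods describe a t-test between the 2 groups with no pairing, which is among the alternatives, as is limma without the block. The deviations of equally numbered arrays correlated above 0.1 in 54 of 60 pairs and in all 3 pairs of 15 experiments. limma 3.58.1 in R 4.3.3 was fitted per experiment with a clone block, to 1 mean per experiment for the mean response and the contrast of times, and to 57 clone pairs for the F test. P-values measure the spread between these clones or experiments, and the number of arrays limits the precision. Named are all member probe sets, the other clock, hypoxia and immediate early genes called in an experiment or of large mean difference, and the genes most like each member. Cell type markers are counted, and which of them to name was decided once their values were known. The members and lists were chosen with earlier results of these data known. Fits were checked on simulated data, and the alternatives are in the closing section. Promoters came from RefSeq (GRCm38.p6), searched in Python 3.11.15.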

Additional observations from a re-analysis of the deposited data

Results flagged for a closer look

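Responses to induction differed between experiments for the main probe sets of Nr1d2 (moderated F test, adjusted p = 3.03e-05) and Dbp (adjusted p = 0.0420). Their second probe sets were not called by this test (adjusted p = 0.357 and 0.589), which called 16.2% of all probe sets. Bhlhe40 differed between the experiments at 39 and 48 hours and those at 24 hours by 0.75, in a contrast that called 5.73% of all probe sets. For 8 genes, all 3 clones were lower after induction in some experiments and all 3 higher in others, and these opposite pairs were not tested as such. With 3 clones, agreement in direction also arises at random. How often it occurred over all probe sets was not determined, so the counts below show nothing particular to these genes. All 3 clones were lower in 6 experiments for Nr1d2, in 4 each for Bhlhe41, Per2 and Clock, in 3 each for Cry1 and Dbp, and in 1 each for Per1 and Nr1d1. They were all higher in 6 experiments for Nr1d2, Dbp and Per1, in 5 for Cry1, in 4 for Clock and Nr1d1, in 3 for Bhlhe41 and in 1 for Per2.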

How the results depend on the processing

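The 5 member calls in the 20 experiments became 3 without the replicate block, 9 in 1 fit of all clone pairs, 8 with trend and robust moderation, 2 by the methods' t-test, 10 by the Cyber-t kind of test and 2 at an adjusted p under 0.01. Without 1 replicate number they were 5 to 8, and with the Sim2 numbers crossed in the block they were 4. The other alternatives kept them within 1.5 times. In the mean response the 1 member call was 0 without the effective experiments, and likewise with 24 hour experiments alone or without Erg and Sim2 (both added after seeing the data), where 4 to 5 member probe sets had an unadjusted p under 0.05. The Bhlhe40 mean was then 0.38, 0.38 and 0.48. Leaving out 1 experiment gave 0 to 1 calls and a Bhlhe40 mean of 0.50 to 0.60, and leaving out 1 replicate number gave 0 calls, with 3 to 5 unadjusted, and 0.53 to 0.60. The 2 genes that differed between experiments became 0 without the effective experiments (2 unadjusted) and 1 to 2 without 1 replicate number. At 39 and 48 hours against 24 hours, the 1 call became 3 with the clone pair as the unit. That fit takes clones of 1 transgene as independent, although they share an experiment. The 1 call became 0 to 2 without 1 experiment (Bhlhe40 0.58 to 0.90) and 0 to 1 without 1 replicate number (0.65 to 0.86). Of the 200 differences of the 10 genes in 20 experiments, 128 were above 0, and 4 changed sign under a second quantile normalization, 12 with the mean over all probe sets of a gene and 0 once the median difference of each pair was removed, none of them Bhlhe40.
Precision is limited by 3 clones per experiment, and dim probe sets of Per2, Bhlhe41 and Clock may miss changes.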
